A study of Mus musculus with 12 samples.

Results

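On mouse chromosome 9, ATAC-seq counts in a tumour library stood high in sharp blocks that hold Yap1, Birc2, Birc3 and Dpy19l1 and parts of Smad6, Vps13c and Cep126. ATAC-seq measures open chromatin through the Tn5 transposase, which cuts accessible DNA and attaches sequencing adapters to it. The members described here are 282 of the 177240 peaks of the series, and of the 9287 peaks on chromosome 9. They were chosen by position: peaks on chromosome 9 that start between 7.7 and 8.2 Mb (143 peaks, the Yap1 region) or between 24 and 25 Mb (87 peaks, the Dpy19l1 region), or that lie within 20 kb of Smad6 (22 peaks) or Vps13c (30 peaks). These positions were themselves selected on high counts in the Lgr5_Epcam- library, so every value that sets this library against the others is a description and carries no test.

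The libraries came from female mice of mixed strain. HF is hair follicle and IFE is interfollicular epidermis, both from wild-type mice, with 1 library each. The tumour libraries came from skin carcinomas of mice with p53fl/fl and Rosa-YFP+/+ among their alleles, in which Cre recombinase removed p53 and switched on the YFP reporter. In K14_Epcam+ (1 library) the recombinase was K14CreER, active in basal keratinocytes. In Lgr5_Epcam+ (2 libraries, replicates 1 and 2) and Lgr5_Epcam- (1 library) it was Lgr5CreER, active in hair follicle stem cells. The tumour fractions were separated by Epcam, a surface protein of epithelial cells, and the sort also used antibodies against CD45, CD31 and CD140a. No label says whether the 2 Lgr5_Epcam+ libraries came from separate animals, so the spread between them may be technical. P-values of comparisons with Lgr5_Epcam+ as its own group measure that spread. Where all Epcam+ tumours are set against HF and IFE together, the groups pool origins. The spread behind those p-values therefore also includes differences between tumour origins and between HF and IFE. Each library holds 32086654 to 62941406 counts in peaks, which were 24.0 to 47.2% of its counts, highest in Lgr5_Epcam+ replicate 1.

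Yap1 encodes a transcriptional coactivator that the kinases of the Hippo pathway keep out of the nucleus; in the nucleus it works through TEAD transcription factors. Birc2 and Birc3 encode the ubiquitin ligases cIAP1 and cIAP2, which hold back cell death and non-canonical NF-kB signalling. The human counterpart of the Yap1 and Birc2 locus is a known amplicon of carcinomas. ATAC-seq counts depend on how open a stretch of DNA is and on how many copies of it are present, and in these libraries openness and copies cannot be told apart. A larger share of cells with high counts and a higher level per cell likewise cannot be told apart.

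The sequences that bear on the finding are the starts of the genes in and at the edges of the segments, since they show which genes lie in a segment together with their start and which are cut. Of 9 genes looked up, 8 had a promoter in the RefSeq table (build GRCm38.p6), and Vps13c is named only. The 250 bases before the first listed start of the gene are printed 5′ to 3′ on the gene's own strand. For all printed genes but Dpy19l1 this window overlaps the end of the gene's RefSeq span. Capitals mark the letters of 4 motifs searched on both strands: AP-1 (TGANTCA), TEAD (GGAATG), GC box (GGGCGG) and CCAAT box (CCAAT). The first 4 starts lie inside a segment, and the last 2 lie outside although part of the gene is inside one.

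Yap1 (chr9:8004597-8004846, minus strand): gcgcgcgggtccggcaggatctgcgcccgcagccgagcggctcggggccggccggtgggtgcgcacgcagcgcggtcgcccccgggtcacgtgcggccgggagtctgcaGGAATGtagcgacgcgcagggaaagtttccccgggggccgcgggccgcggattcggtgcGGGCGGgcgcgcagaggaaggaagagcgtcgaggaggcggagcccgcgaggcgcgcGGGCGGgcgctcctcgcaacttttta
Birc2 (chr9:7837058-7837307, minus strand): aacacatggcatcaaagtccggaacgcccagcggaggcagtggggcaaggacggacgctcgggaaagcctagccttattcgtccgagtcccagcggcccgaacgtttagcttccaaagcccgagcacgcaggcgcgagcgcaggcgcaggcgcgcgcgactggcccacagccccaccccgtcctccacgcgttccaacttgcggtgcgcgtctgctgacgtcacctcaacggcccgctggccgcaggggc
Birc3 (chr9:7873171-7873420, minus strand): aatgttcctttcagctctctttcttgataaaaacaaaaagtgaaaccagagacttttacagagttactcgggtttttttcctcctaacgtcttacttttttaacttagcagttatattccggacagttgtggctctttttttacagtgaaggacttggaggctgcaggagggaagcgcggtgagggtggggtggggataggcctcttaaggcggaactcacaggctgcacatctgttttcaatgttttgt
Dpy19l1 (chr9:24503141-24503390, minus strand): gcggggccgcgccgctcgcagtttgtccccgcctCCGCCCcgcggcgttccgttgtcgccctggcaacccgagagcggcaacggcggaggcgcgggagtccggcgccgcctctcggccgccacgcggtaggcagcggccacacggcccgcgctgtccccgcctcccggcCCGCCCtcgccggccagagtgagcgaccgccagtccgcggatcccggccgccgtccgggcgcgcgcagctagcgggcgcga
Cep126 (chr9:8134447-8134696, minus strand): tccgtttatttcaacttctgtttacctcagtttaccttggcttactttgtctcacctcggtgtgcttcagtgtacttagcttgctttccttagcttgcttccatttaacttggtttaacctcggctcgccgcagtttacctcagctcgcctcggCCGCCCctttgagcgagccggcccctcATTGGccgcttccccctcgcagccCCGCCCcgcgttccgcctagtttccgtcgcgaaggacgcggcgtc
Smad6 (chr9:64022060-64022309, minus strand): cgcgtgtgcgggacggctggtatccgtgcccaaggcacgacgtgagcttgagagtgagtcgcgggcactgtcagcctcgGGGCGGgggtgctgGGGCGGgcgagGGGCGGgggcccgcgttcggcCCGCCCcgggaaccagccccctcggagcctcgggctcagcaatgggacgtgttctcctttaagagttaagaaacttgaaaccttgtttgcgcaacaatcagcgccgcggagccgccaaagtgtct

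The Yap1 window held 1 TEAD motif and 2 GC boxes, the Dpy19l1 window held 2 GC boxes, and those of Birc2 and Birc3 held none of the 4 motifs. The Smad6 window held 4 GC boxes, and that of Cep126 held 2 GC boxes and 1 CCAAT box. Of 32851 promoter windows of this length in the table, 12.6% hold the TEAD letters, 32.7% the GC box, 33.8% the CCAAT box and 6.75% the AP-1 letters. The share of G and C bases was 76.4% in the Yap1 window, 68.4% in Birc2, 43.6% in Birc3, 80.8% in Dpy19l1, 57.2% in Cep126 and 66.8% in Smad6, beside a median of 52.4% over all windows. A match of letters is no evidence of a bound site. The Yap1 segment also holds a microRNA gene, Mir5618, inside Tmem123 at chr9:7784390-7784440. Its mature sequences are shown with the seed (bases 2 to 8) in capitals.

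mmu-miR-5618-5p: uACCCUUUacaccguguagu
mmu-miR-5618-3p: cUAUACCAuguaaagggu

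The limits of each segment were placed where a single step up in the log2 ratio of Lgr5_Epcam- to the mean of the other 5 libraries left the smallest squared error within 3 Mb on either side of the region. Ratios are of CPM, the counts in peaks scaled to the library total with edgeR's TMM method and a prior count of 2. The Yap1 segment spans chr9:7746943-8117403 (mm10), a length of 370.5 kb with 136 peaks and a median log2 ratio of 3.80, which is 13.9-fold. The Dpy19l1 segment spans chr9:24352340-24525766, 173.4 kb with 63 peaks and a median of 3.37 (10.3-fold). The Smad6 segment spans chr9:63838861-63979020, 140.2 kb with 47 peaks and a median of 3.62 (12.3-fold).

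The Vps13c segment was the shortest, at chr9:67948544-68004707, 56.2 kb with 21 peaks and a median of 3.49 (11.2-fold). Over all peaks of the series the median log2 ratio was -0.08 (SD 1.05 over peaks), and over chromosome 9 it was -0.12. Of the 282 members, 237 lay inside these limits and 45 outside, with medians of 3.61 and 0.16. The Smad6 segment reaches past the chosen region, since 17 of its 47 peaks are members. Members at or above a log2 ratio of 1 numbered 246, beside a background of 17.2% of all peaks, and 234 were at or above 2, beside 4.05%. In 251 members Lgr5_Epcam- was above all 5 other libraries, beside 22.5% of all peaks. These shares describe how the members were picked, so nothing is read from them.

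**Figure D1:**
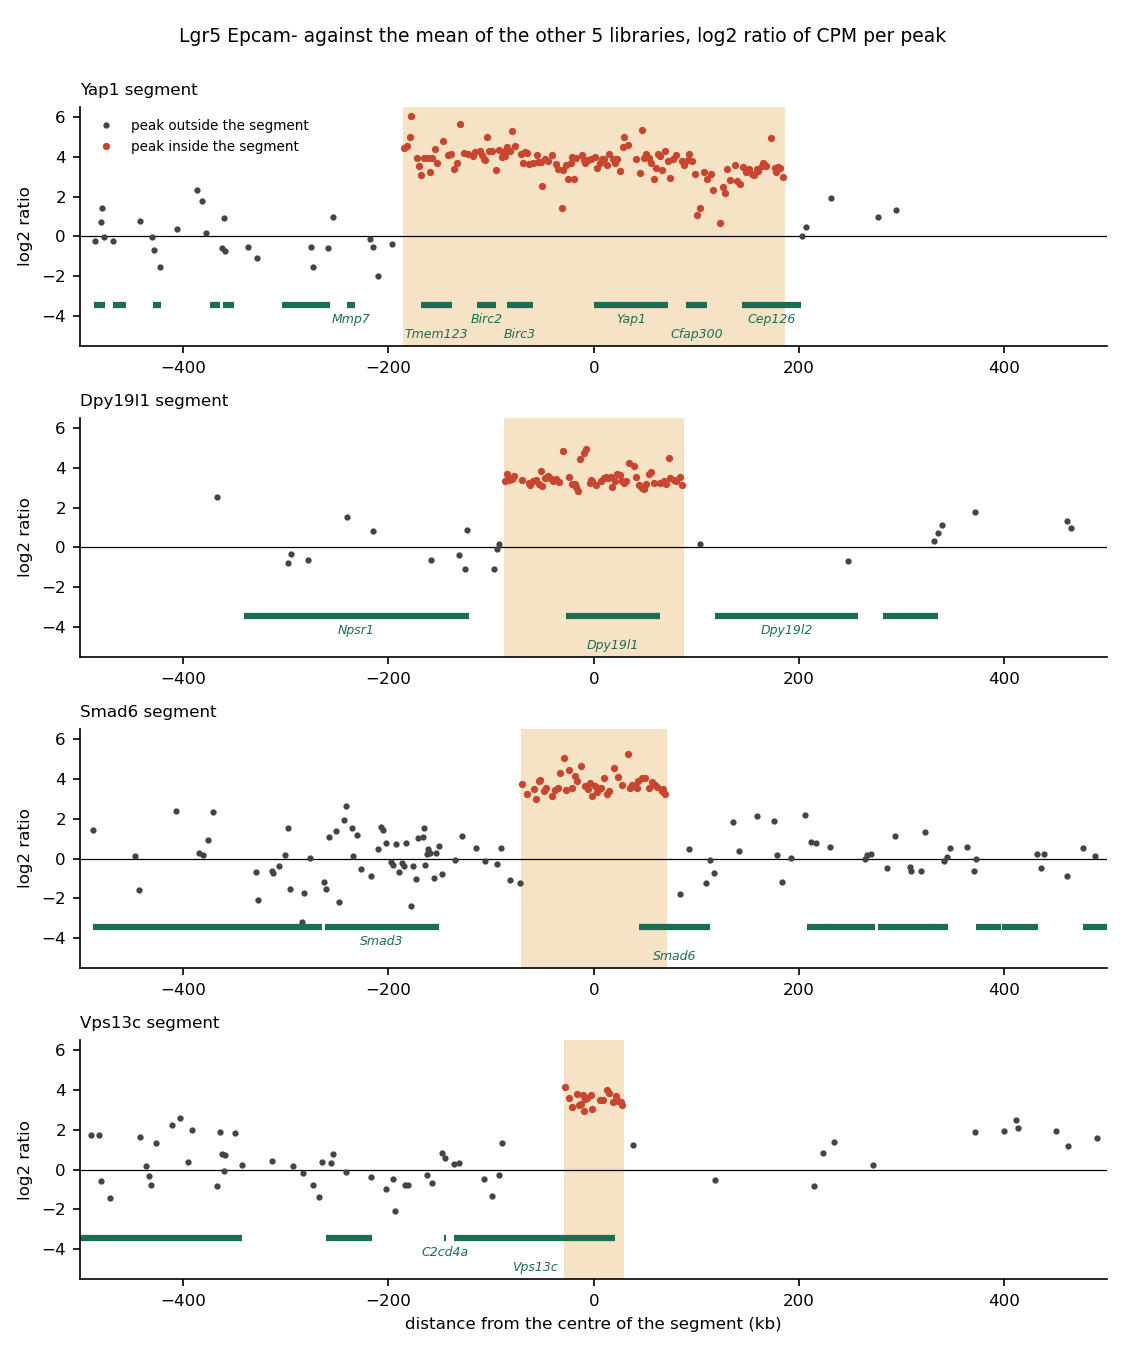
Log2 ratio of CPM of Lgr5_Epcam- to the mean of the other 5 libraries (y axis) for each peak against its distance from the centre of the segment in kb (x axis), with the segment shaded and protein-coding genes as green bars. Peaks inside the 4 segments have medians of 3.37 to 3.80, and the nearest peaks outside lie between -1.77 and 1.31.

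At each edge the change took place from a peak to its neighbour. In the Yap1 segment the first peak inside had a log2 ratio of 4.44, and the nearest peak before it, 11.2 kb away, had -0.38. The first peak inside held 1.95 CPM in HF, 1.05 in IFE, 1.05 in K14_Epcam+, 2.10 and 0.92 in the Lgr5_Epcam+ replicates and 29.9 in Lgr5_Epcam-, and the peak before it held 0.27 to 1.99 in the others and 0.78 in Lgr5_Epcam-. Lgr5_Epcam- was thus within the range of the others at a peak and far above them at the next. At the far end, the last peak inside had 2.96 and the next, 16.6 kb on, had 0.00. The edges of the Dpy19l1 segment went from 0.16 to 3.33 over 4.58 kb and from 3.15 to 0.20 over 15.8 kb. The Smad6 segment rose from -1.21 to 3.76 within 1.09 kb, and fell from 3.25 to -1.77 over 13.3 kb. The peaks that flank the Vps13c segment, 60.9 and 9.93 kb away, were at 1.31 and 1.21, and the first and last peaks inside at 4.12 and 3.26.

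The same first and last peaks were found for the Yap1 and Smad6 segments when Lgr5_Epcam- was set against each of the 5 other libraries alone. For Dpy19l1 and Vps13c they were found against 4 of the 5. Against Lgr5_Epcam+ replicate 1 the fit ran out to 2221 kb for Dpy19l1 and to 941.5 kb for Vps13c. The share of all counts in peaks that fell in the 267 peaks of the 4 segments was 0.966% in Lgr5_Epcam-, and 0.0973% in HF, 0.0944% in IFE, 0.0629% in K14_Epcam+, and 0.0718% and 0.0487% in the Lgr5_Epcam+ replicates. These peaks are 0.151% of the peak list, and every library but Lgr5_Epcam- had a smaller share of its counts in them. The positions were selected on high counts in Lgr5_Epcam-, so nothing is read from this.

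Per peak, the median level in the Yap1 segment was 2.20 CPM in HF, 2.18 in IFE, 1.49 in K14_Epcam+, 2.37 and 1.24 in the Lgr5_Epcam+ replicates and 26.1 in Lgr5_Epcam-. In the Dpy19l1 segment the medians were 1.62, 1.37, 0.971, 0.966 and 0.657 CPM in the same order of the 5 libraries, and 11.2 in Lgr5_Epcam-. The weakest peak of the Dpy19l1 segment in Lgr5_Epcam-, at 8.21 CPM, was above the median of every other library. Lgr5_Epcam- was above all 5 others in 133 of 136 peaks of the Yap1 segment and in all 63, 47 and 21 peaks of the Dpy19l1, Smad6 and Vps13c segments.

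**Figure D2:**
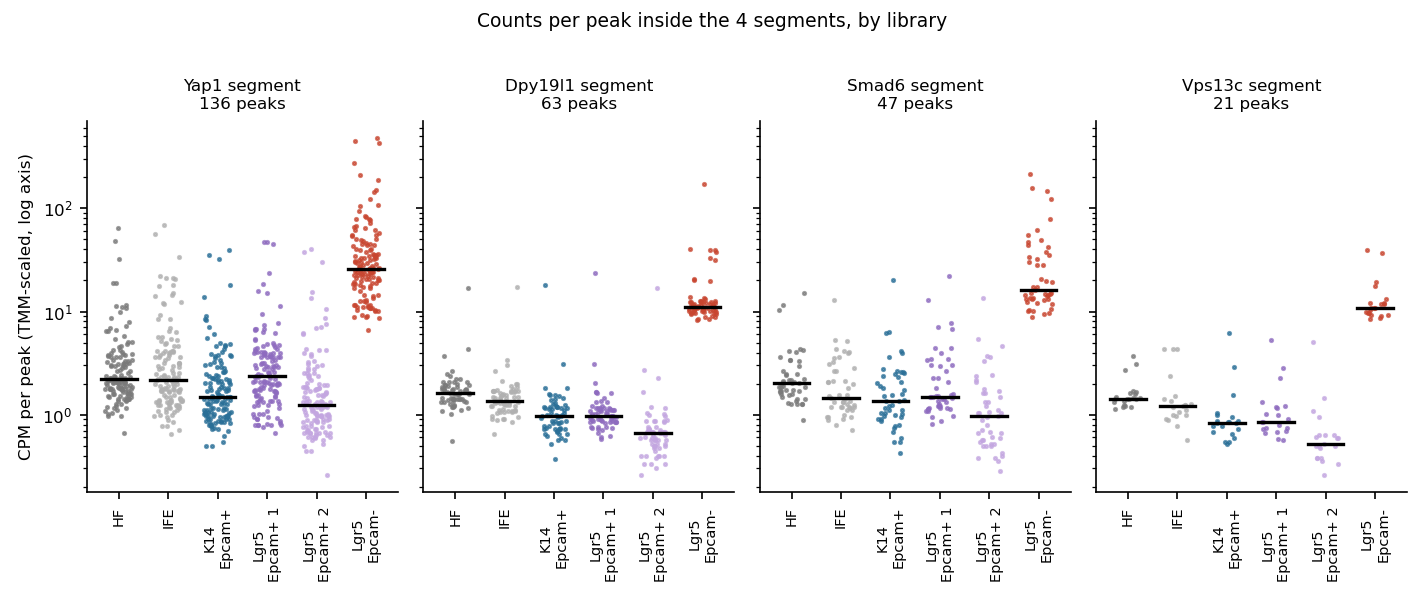
CPM per peak (log axis) inside the 4 segments in each of the 6 libraries, 1 point per peak, with the median as a black bar. The Lgr5_Epcam- medians are 26.1, 11.2, 16.2 and 10.8 CPM, and the medians of the other libraries lie between 0.516 and 2.37.

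Segments also differed from their surroundings in the spacing and width of peaks. The peak list is shared by all libraries, Lgr5_Epcam- among them, so these traits cannot be taken as separate from its high counts. Peaks were dense: 1 peak every 2.67 to 2.98 kb inside, and 1 every 7.88 to 30.3 kb in the flanks within 3 Mb. Many were of the commonest width in the peak list, 1001 bp: 92.1% inside the Dpy19l1 segment, 85.7% in Vps13c, 55.3% in Smad6 and 47.8% in Yap1, beside 29.0 to 40.2% in the flanks. How the list of peaks was drawn up across the libraries is not given in the sources used here.

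Within a segment the ratio was nearly even. In the Dpy19l1 segment 87.3% of peaks lay within 0.5 of the segment's median log2 ratio, in Vps13c 90.5%, in Smad6 83.0% and in Yap1 64.7%. Peaks weak in the other libraries had ratios close to those of strong ones: in the Dpy19l1 segment the weakest tercile of peaks had a median of 3.52 and the strongest 3.26, in Yap1 they had 3.68 and 3.51, and in Smad6 3.55 and 3.97. Along the Yap1 segment, bins of 50 kb had medians from 4.19 near Birc2 to 3.17 in the bin that starts 300 kb from the near edge. The paired-end runs gave larger ratios than the single-end runs in each segment, with medians of 4.01 and 3.50 in Yap1, 3.57 and 3.16 in Dpy19l1, 3.96 and 3.34 in Smad6, and 3.69 and 3.33 in Vps13c.

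The Yap1 segment holds 5 protein-coding genes whole and 1 in part. Tmem123, which encodes a mucin-like membrane protein, comes first, followed by Birc2, Birc3, Yap1 and Cfap300, which encodes a protein of cilia and flagella. The median log2 ratio of the peaks that overlap each was 3.95 for Tmem123 (10 peaks), 4.19 for Birc2 (8), 4.23 for Birc3 (10), 3.89 for Yap1 (28) and 3.18 for Cfap300 (8). Summed over the peaks that overlap the gene, Yap1 held 120.9 CPM in HF, 134.4 in IFE, 100.4 in K14_Epcam+, 159.2 and 97.5 in the Lgr5_Epcam+ replicates and 1903 in Lgr5_Epcam-. Thus the highest of the other libraries, Lgr5_Epcam+ replicate 1, stayed far below Lgr5_Epcam-.

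The peak over the Yap1 start, whose sequence is printed above, held 32.0 CPM in HF, 33.6 in IFE, 32.7 in K14_Epcam+, 47.4 and 30.4 in the Lgr5_Epcam+ replicates and 479.7 in Lgr5_Epcam-, a log2 ratio of 3.79. The peak over the Birc2 start held 48.6, 56.5, 35.1, 44.9 and 38.0 CPM in the 5 libraries in that order, and 450.7 in Lgr5_Epcam- (log2 ratio 3.36). The peak over the Birc3 start held 11.6, 17.9, 18.1, 23.5 and 13.6 CPM, and 209.5 in Lgr5_Epcam- (log2 ratio 3.67). At the Yap1 and Birc3 starts the normal and Epcam+ tumour libraries overlapped, at Birc2 both normal libraries lay above all 3 Epcam+ tumours, and at each Lgr5_Epcam- stood apart. The start of Tmem123 held 64.4 CPM in HF, 69.3 in IFE, 39.7 in K14_Epcam+, 47.7 and 40.5 in the Lgr5_Epcam+ replicates and 431.1 in Lgr5_Epcam-. There too the HF and IFE values lay above those of the 3 Epcam+ tumour libraries. The Cfap300 start held 18.9, 20.5, 13.7, 15.1 and 15.5 CPM, and 123.4 in Lgr5_Epcam-.

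The single-end runs gave a smaller ratio than the paired-end runs at these strong peaks: 2.69 and 4.34 at the Yap1 start, 1.87 and 3.90 at Birc2, 2.58 and 4.23 at Birc3 and 1.79 and 3.58 at Tmem123. Both runs put Lgr5_Epcam- higher at each. Why the runs differ was not tested, and the fold at strong peaks is therefore less certain than its direction.

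Cep126, which encodes a centrosomal protein, is cut by the far edge: 70.6% of its length lies inside, and the peak over its start lies outside. The 17 peaks inside had a median log2 ratio of 3.42. The start held 6.02 CPM in HF, 11.9 in IFE, 15.2 in K14_Epcam+, 12.7 and 10.7 in the Lgr5_Epcam+ replicates and 10.8 in Lgr5_Epcam-, a ratio of 0.00. There Lgr5_Epcam- lay inside the range of the others. On the near side the metalloproteinase gene Mmp7 lies 47.4 kb outside the segment, and on the far side Trpc6, a cation channel gene, lies 426.5 kb away; neither holds a peak. The Mir5618 hairpin lies under a peak with 2.42 CPM in HF, 2.31 in IFE, 1.69 in K14_Epcam+, 3.61 and 1.62 in the Lgr5_Epcam+ replicates and 63.9 in Lgr5_Epcam-, a log2 ratio of 4.81.

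The Dpy19l1 segment holds 1 protein-coding gene, Dpy19l1, of a family of mannosyltransferases, whole, with 35 peaks at a median log2 ratio of 3.36. The peak over its start held 16.9 CPM in HF, 17.2 in IFE, 18.2 in K14_Epcam+, 23.9 and 16.9 in the Lgr5_Epcam+ replicates and 174.5 in Lgr5_Epcam-. The neighbours lie outside: Npsr1, a receptor gene 34.7 kb before the segment, had 9 peaks at a median of -0.37, and Dpy19l2, 31.3 kb after it, had 1 peak at -0.69. The 24 members of this region outside the limits ranged from -1.10 to 2.53.

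Smad6 encodes an inhibitory Smad that restrains BMP signalling, and 37.6% of its length lies in the Smad6 segment, at the end away from its start. The 9 peaks inside had a median log2 ratio of 3.60 and the 4 outside had -0.63. The peak over the Smad6 start held 29.0 CPM in HF, 23.3 in IFE, 26.7 in K14_Epcam+, 27.2 and 26.5 in the Lgr5_Epcam+ replicates and 25.4 in Lgr5_Epcam-. The 6 libraries thus lay close together there, with a ratio of -0.06. Smad3, whose product carries TGF-beta signals, lies 80.9 kb on the other side and had 36 peaks at a median of 0.28. No other protein-coding gene overlaps this segment.

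Vps13c encodes a protein of lipid transfer between organelles, and 31.3% of its length, at the end of higher coordinate, lies in the Vps13c segment. The 18 peaks inside had a median log2 ratio of 3.56 and the 6 outside had 0.00. The peak at its lower end held 7.10 CPM in HF, 8.51 in IFE, 9.59 in K14_Epcam+, 8.30 and 6.15 in the Lgr5_Epcam+ replicates and 9.60 in Lgr5_Epcam-. The peak at the upper end held 1.43, 1.25, 0.772, 1.15 and 0.329 CPM in the 5 libraries and 12.0 in Lgr5_Epcam-. The gene was thus level across libraries at its lower end, and Lgr5_Epcam- stood above all others at its upper end.

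**Figure D3:**
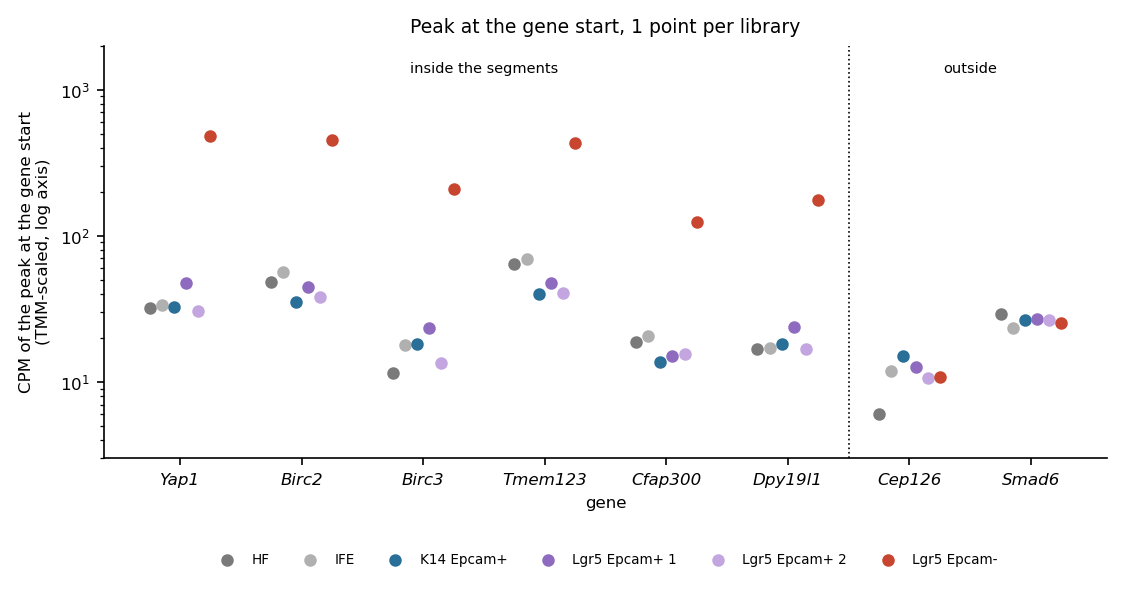
CPM (log axis) of the peak over the start of 8 genes in each of the 6 libraries, 1 point per library, with genes whose start lies inside a segment on the left. Lgr5_Epcam- is at 123.4 to 479.7 CPM at the 6 starts inside and at 10.8 and 25.4 at the 2 outside.

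Single peaks departed from their segment. In the Yap1 segment 9 peaks lay more than 1 above the segment's median log2 ratio and 9 more than 1 below, in Dpy19l1 5 lay above and none below, in Smad6 3 above and none below, and in Vps13c none either way. The highest ratio was 6.07, at chr9:7753636-7754654 near the edge of the Yap1 segment, where the 5 other libraries held 1.31 to 7.70 CPM and Lgr5_Epcam- 150.8. The 7.70 CPM was that of Lgr5_Epcam+ replicate 1, and the other 4 were at or below 2.17. The lowest ratio inside was 0.65, at chr9:8054488-8055597 between Cfap300 and Cep126. It held 11.2 CPM in HF, 17.9 in IFE, 4.76 in K14_Epcam+, 4.36 and 7.63 in the Lgr5_Epcam+ replicates and 12.5 in Lgr5_Epcam-. There Lgr5_Epcam- was above the 3 Epcam+ tumours and below IFE.

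Contrasts that leave out Lgr5_Epcam- did not choose the positions of the members, and these contrasts were tested. The peak list is however shared with Lgr5_Epcam-, and whether the members would be on it without that library was not tested. Peaks inside the segments were weak in the tested libraries, with medians of 0.516 to 2.37 CPM, beside 10.8 to 26.1 in Lgr5_Epcam-. The calls and medians there thus mostly compare low counts. Epcam+ tumours (K14_Epcam+ and both Lgr5_Epcam+, n = 3) were set against HF and IFE (n = 2) with edgeR's quasi-likelihood test and Benjamini-Hochberg adjustment over 177238 peaks. Of the 282 members 5 were higher and 28 lower at an adjusted p of 0.05, beside 15.1% of all peaks higher and 15.1% lower. Without Lgr5_Epcam+ replicate 1 the counts were 3 and 15, beside 9.29% and 6.68% of all peaks, and without replicate 2 they were 6 and 15, beside 15.06% and 12.2%. With total-count scaling they were 3 and 54, beside 12.4% and 18.5%. Inside the segments the calls were 3 higher and 14 lower of 136 peaks in Yap1, 0 and 5 of 63 in Dpy19l1, and none among the 17 members inside Smad6 or the 21 peaks of Vps13c. At an unadjusted p under 0.05 edgeR had 39 of the 136, 19 of the 63, 0 of the 17 and 6 of the 21, beside 42.0% of all peaks. The median log2 fold change was -0.42, -0.77, -0.32 and -0.83, beside 0.01 over all peaks, -0.37 on chromosome 9 and -0.37 over all peaks of the commonest width. The normal libraries have the lowest share of counts in peaks (24.0 and 29.6%, beside 35.6 to 47.2% in the Epcam+ tumours), and the part of that share in these medians was not tested.

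The peak over the Tmem123 start was lower in Epcam+ tumours by a log2 fold change of -0.65 (SE 0.17, adjusted p = 0.0174). The starts of Yap1 (0.17, SE 0.22, adjusted p = 0.593), Birc2 (-0.42, SE 0.18, 0.109), Birc3 (0.32, SE 0.29, 0.424) and Dpy19l1 (0.21, SE 0.24, 0.539) did not pass the test. A group of peaks between Birc3 and Yap1 and another around Cfap300 were lower, led by chr9:8057421-8058787 (-2.74, SE 0.54, adjusted p = 0.00441) and chr9:7900685-7901825 (-2.40, SE 0.34, adjusted p = 0.00108). At the second of these HF held 18.8 CPM, IFE 21.0, K14_Epcam+ 2.89, and the Lgr5_Epcam+ replicates 4.03 and 4.37. Lgr5_Epcam- held 19.7. The normal and Epcam+ tumour libraries did not overlap there. A peak in the Yap1 gene, chr9:7965374-7966480, was higher in Epcam+ tumours (1.38, SE 0.29, adjusted p = 0.00551), at 3.41 and 3.42 CPM in HF and IFE and 8.32, 11.2 and 7.13 in the tumours. Another peak in the Yap1 gene, chr9:7992233-7993576, was lower (-1.23, SE 0.40, adjusted p = 0.0393).

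Outside the limits, the strongest call among the members was the peak at chr9:24943480-24944552 (2.84, SE 0.38, adjusted p = 0.000837). HF and IFE held 1.90 and 1.85 CPM there, the 3 Epcam+ tumours 12.9 to 14.4 and Lgr5_Epcam- 18.7. All tumour libraries were thus high at this peak, with Lgr5_Epcam- little above the rest.

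Set against HF alone, Lgr5_Epcam+ had 3 members higher and 11 lower, beside 8.88% and 7.41% of all peaks. With total-count scaling they were 3 and 40, beside 8.15% and 13.8% of all peaks. The 3 higher were chr9:7965374-7966480 (1.43, SE 0.35, adjusted p = 0.0152), chr9:7978466-7980078, also in Yap1 (1.28, SE 0.34, adjusted p = 0.0236), and the peak at chr9:24943480-24944552 outside the limits (2.85, SE 0.57, adjusted p = 0.00503). At chr9:7978466-7980078 HF held 5.06 CPM and the Lgr5_Epcam+ replicates 15.9 and 8.71. Between Lgr5_Epcam+ and K14_Epcam+ no member passed in either direction, and of all peaks 0.000564% were higher and 0.0079% lower. At an unadjusted p under 0.05 edgeR had 8 members there, beside 5.65% of all peaks, and DESeq2 also called no member after adjustment. Both comparisons with Lgr5_Epcam+ assume that the lone library varies as the Lgr5_Epcam+ pair does.

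The Lgr5_Epcam+ libraries were not alike in the segments. Replicate 1 was set against the mean of K14_Epcam+ and replicate 2, without Lgr5_Epcam-. In the Yap1 segment its median log2 ratio was 0.62 inside and -0.76 in the flanks, a difference of 1.38, and 136 of 136 peaks lay above the flank median. The differences were 0.77 in Dpy19l1 (60 of 63 peaks above), 0.67 in Smad6 (47 of 47) and 0.67 in Vps13c (20 of 21). The flanks were wide, with 5th to 95th percentiles of -1.65 to 0.21, -1.42 to 0.56, -1.12 to 0.75 and -1.25 to 0.42. The inside medians of Dpy19l1 (0.39) and Smad6 (0.58) lay within these ranges, and those of Yap1 and Vps13c (0.46) just above or above them. The comparison of replicate 1 was added after the values were seen, rests on single libraries and has no test.

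A step fitted to these ratios alone began at the same peak as the Lgr5_Epcam- segment in all 4 regions. It ended 1 peak later in Yap1 and Dpy19l1, 2 peaks earlier in Smad6 and 1 peak earlier in Vps13c. Against single libraries the ends lay further off in some segments. Against replicate 2 only, the step began 5 peaks later in Dpy19l1 and 42 peaks earlier in Smad6 and ended 4 peaks later in Vps13c, and against K14_Epcam+ only it ended 4 peaks later in Smad6. For K14_Epcam+ against Lgr5_Epcam+ replicate 2 the difference between inside and flank was -0.02, 0.09, 0.01 and -0.06, and the fitted steps ended 37 to 199 peaks from the segment ends. This pair was less flat in other settings. In paired-end runs alone it had 0.15, 0.24, 0.05 and -0.46, beside 1.32, 0.73, 0.67 and 0.58 for replicate 1. In single-end runs alone the pair had -0.08, -0.02, 0.04 and 0.01, and with flanks of 1.5 Mb it had 0.23 in Dpy19l1. With peaks of the commonest width on both sides the differences for replicate 1 were larger, at 1.58, 1.02, 0.95 and 0.87. For HF against IFE, over peaks of any width, they were 0.02, 0.20, 0.41 and 0.39, so in the Smad6 and Vps13c segments a normal library also differed from its pair by part of the size seen for replicate 1.

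**Figure D4:**
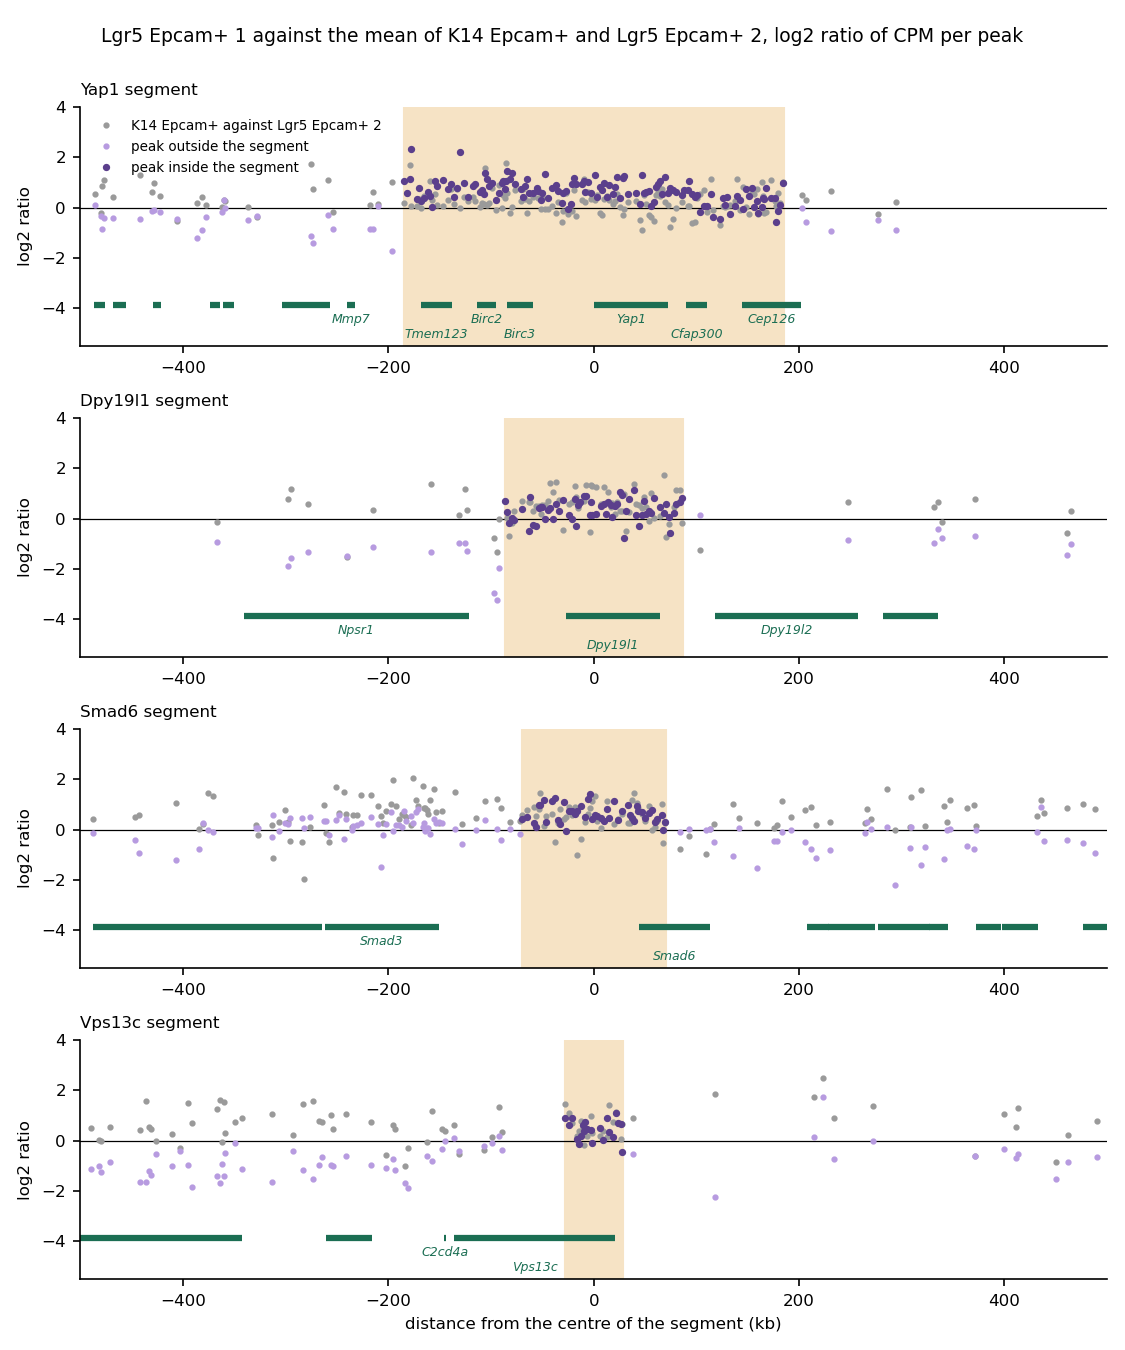
Log2 ratio of CPM of Lgr5_Epcam+ replicate 1 to the mean of K14_Epcam+ and Lgr5_Epcam+ replicate 2 (purple, dark inside the segment) and of K14_Epcam+ to Lgr5_Epcam+ replicate 2 (grey), per peak (y axis) against the distance from the segment's centre in kb (x axis). With both runs summed, the purple peaks have medians of 0.39 to 0.62 inside the segments and -0.76 to -0.10 in the flanks. The grey medians then differ by at most 0.09 between inside and flank.

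Across peaks of a segment, the levels in Lgr5_Epcam- followed those of Lgr5_Epcam+ replicate 1 most closely of the 5 libraries. Pearson's r of log2 CPM was 0.93 over the 136 peaks of Yap1, 0.85 over the 63 of Dpy19l1, 0.93 over the 47 of Smad6 and 0.92 over the 21 of Vps13c. With Lgr5_Epcam+ replicate 2 it was 0.78, 0.73, 0.89 and 0.75, and with K14_Epcam+ 0.80, 0.70, 0.86 and 0.88. In the flanks of Yap1 (199 peaks) replicates 1 and 2 and K14_Epcam+ had r of 0.62, 0.63 and 0.63. In the flanks of Smad6 (757 peaks) they had 0.62, 0.57 and 0.59, in those of Dpy19l1 (425 peaks) 0.70, 0.73 and 0.70, and in those of Vps13c (687 peaks) 0.71, 0.72 and 0.72. With Spearman's rank correlation inside the segments replicate 1 was again highest, at 0.89 in Yap1, 0.55 in Dpy19l1, 0.879 in Smad6 and 0.74 in Vps13c. In Smad6 K14_Epcam+ was nearly equal, at 0.876. Replicate 1 was also the deepest library, with 62941406 counts in peaks beside 45718546 in replicate 2 and 39179299 in K14_Epcam+. The part of this depth in its higher values inside the segments was not tested. Peaks of 1 library share its depth, so all these correlations are descriptions.

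The Hippo list shows whether other genes of the pathway stood where Yap1 did. Summed over peaks within 20 kb of a gene, 2 of the 19 Hippo genes outside the segments had a log2 ratio of Lgr5_Epcam- to the other 5 of at least 1 and none of at most -1, beside 4.51% and 3.89% of 19067 genes. They were Ankrd1 (2.21) and Ccn2 (1.05), both classic targets of Yap1, and the list's median was 0.29. Ankrd1 held 11.2 CPM in HF, 9.85 in IFE, 15.05 in K14_Epcam+, 12.7 and 13.9 in the Lgr5_Epcam+ replicates and 57.6 in Lgr5_Epcam-. Ccn2 held 81.4 CPM in HF, as much as the 80.5 in Lgr5_Epcam-, and 25.1 to 42.8 in the other 4, so its ratio rests on those 4. Ccn1, another target, was at 0.69. The partner genes Tead1 (0.44) and Tead4 (-0.15), the paralogue Wwtr1 (0.16) and the kinase gene Lats2 (0.29) stayed under 1.

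In Epcam+ tumours against HF and IFE, 1 of these 19 Hippo genes was higher and 1 lower, beside 10.4% and 6.89% of all genes. Sav1, a scaffold of the Hippo kinases, was higher (1.02, SE 0.20, adjusted p = 0.0140), and Amotl2, an angiomotin that binds Yap1, was lower (-0.77, SE 0.17, adjusted p = 0.0231). The sum over the peaks near Yap1 itself did not pass (-0.28, SE 0.22).

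Of the 9 genes of the inhibitor of apoptosis and NF-kB list outside the segments none had a ratio past 1 in either direction, and their median was 0.13. Xiap, another inhibitor of apoptosis, was at -0.39, and Map3k14 and Relb, of the non-canonical pathway that cIAP proteins restrain, at 0.13 and 0.09. Birc2 and Birc3 share peaks within 20 kb, so their sums (3.99 and 3.85) are not independent. In Epcam+ tumours against HF and IFE 1 of these 9 genes was higher and none lower, beside 10.4% and 6.89% of all genes. It was Tnfaip3, a brake on NF-kB (0.76, SE 0.22, adjusted p = 0.0471).

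The metalloproteinase genes that lie next to the Yap1 segment did not share its ratio. None of the 10 was past 1 in either direction in Lgr5_Epcam-, with a median of 0.07 and Mmp7, the nearest, at 0.03. In Epcam+ tumours against HF and IFE 3 were higher and none lower, beside 10.4% and 6.89% of all genes. They were Mmp10 (2.21, SE 0.26, adjusted p = 0.00394), Mmp1b (1.94, SE 0.30, adjusted p = 0.00728) and Mmp13 (1.85, SE 0.27, adjusted p = 0.00567). Of the 10 Smad and Id genes beside Smad6 none was past 1 (median -0.15), and of the 3 other Vps13 genes none was either, although Vps13b was at 0.99. In Epcam+ tumours 2 of these 10 Smad and Id genes were higher, Smad3 (0.94) and Smad7 (0.93), and 2 lower, Smad5 (-0.81) and Smad9 (-0.52), beside the 10.4% and 6.89% of all genes. The sum near Vps13c was lower (-0.74, SE 0.19, adjusted p = 0.0367).

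Markers of other cells moved with Lgr5_Epcam-, and their part in the segments was not tested. Over all 19067 genes, 4.51% had a ratio of at least 1 and 3.89% of at most -1. Of 6 keratinocyte genes 5 had a ratio of at most -1, and the list summed to 373.0 CPM in Lgr5_Epcam-, 922.2 to 942.4 in HF and IFE and 842.0 to 1242 in Epcam+ tumours. Epcam was at 15.6 CPM in Lgr5_Epcam-, below the 36.1 to 83.7 of the other 5. All 6 mesenchymal genes were at least 1 higher, at 555.3 CPM beside 121.7 to 158.7 in normals and 290.9 to 343.1 in Epcam+ tumours. Of 8 fibroblast and pericyte genes 7 were at least 1 higher, at 485.4 CPM beside 147.8 to 202.0 and 156.9 to 193.4. Pdgfra, which encodes the CD140a of the sort, was at 78.6 CPM beside 35.1 to 52.9. None of the 6 endothelial and 6 leukocyte genes was past 1 upward, and no marker of any list was at 0 in Lgr5_Epcam-. The highest of these marker ratios was 2.49, for Col1a2. On the same measure, the sum over peaks within 20 kb, Yap1 was at 3.95, Smad6 at 2.73 and Vps13c at 2.24. The sums near Smad6 and Vps13c also hold peaks outside the segments.

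Seen over the whole genome, blocks of this kind were few. A running median over 9 peaks stayed above a log2 ratio of 2 for at least 15 peaks in 9 stretches, and 6 of them were on chromosome 9. Of these 6, 4 are the segments described here. The other 2 hold no protein-coding gene: chr9:47367066-47407715 with 17 peaks at a median of 3.25, and chr9:60912013-61057712 with 55 peaks at 3.62. In all 6 the peaks were 2.39 to 2.98 kb apart. The 3 stretches on other chromosomes, among them those at the collagen genes Col3a1 and Col1a2, had medians of 2.23 to 2.80 and peaks 7.47 to 20.6 kb apart. On chromosome 9 there were also 4 shorter stretches. That over Panx1, a channel gene, had 7 peaks at a median of 3.22 and 2.73 kb apart. The stretch over Loxl1, a gene of the lysyl oxidase family, was as dense (7 peaks, 2.38 kb apart) but had a median of 2.21. Those over Fez1 (median 2.71) and over Cpne4 and Mrpl3 (median 2.12) had peaks 5.75 and 38.3 kb apart.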

How the data were processed

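ATAC-seq was run on 6 libraries, each sequenced as single-end and as paired-end reads, 12 runs in all. The authors deposited raw counts per peak for each run and 1 list of 177240 peaks. Per the submitters' processing notes, Bowtie2, HOMER, bedtools and HTSeq were used with mm10. For their versions, read filters and peak calling the labels used here give nothing. Counts outside peaks, listed in the same files, were left out.

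Both runs of a library were summed (Pearson's r of log2 counts 0.93 to 0.98 across peaks, with no identical runs). The members, gene lists and tests were chosen with earlier results of these data known. Tests were edgeR 4.0.16 quasi-likelihood F tests (R 4.3.3, limma 3.58.1) over all peaks that passed filterByExpr with a minimum count of 10. Calls are at a Benjamini-Hochberg adjusted p under 0.05. All libraries entered each fit, with 3 groups (normal, Epcam+ tumour, Lgr5_Epcam-) for Epcam+ tumours against normal epithelia and the 5 labelled groups for the other comparisons, where the Lgr5_Epcam+ pair alone sets the spread. The standard error is the size of the log2 fold change divided by the square root of F. Segment limits came from a least-squares step with ratios clipped at 4 from the median and at least 5 peaks inside. The tests, the step and the motif search were checked on simulated data. Gene positions are RefSeq's for GRCm38.p6. Named peaks are, in each region, the one of highest level in the other libraries, those of highest and lowest ratio, those at the limits and those at gene ends. Peaks named from the tests were chosen after their values were seen. Alternatives were other scalings, DESeq2 1.42.0, each kind of run alone, no filter on low counts, a prior count of 0.5, other windows and other reference libraries. A further allele of the tumour mice is not reported here.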

Additional observations from a re-analysis of the deposited data

How the results depend on the processing

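Lgr5_Epcam- is 1 library, so its ratios have no replicate check. The medians of the segments and regions stayed positive under all alternatives run. The median log2 ratio of the members moved by more than its SD over the 5 single reference libraries against HF only, to 2.60 in Dpy19l1, 3.07 in Smad6 and 2.75 in Vps13c (2.82, 3.14 and 2.90 inside the limits). Among members of above-median level it was 1.81 in Smad6 and 0.90 in Vps13c, and 88 of 102 members were at or above 1. These members include strong peaks outside the limits, and the share over all peaks of such level was not computed. Inside the limits, the strongest tercile of peaks had medians of 3.97 in Smad6 and 3.48 in Vps13c. The running-median method ended the Yap1 segment 1 peak later (388.3 kb), and against Lgr5_Epcam+ replicate 1 alone the Dpy19l1 and Vps13c limits ran out to 2221 and 941.5 kb. The windows, the single kinds of run, the Lgr5_Epcam+ pair as reference and leaving out either Lgr5_Epcam+ replicate moved no limit. Of 420 values for 42 named peaks, 31 moved by more than the peak's own SD. In 11 the sign changed, at 5 peaks outside the limits with log2 ratios of -0.38 to 0.20.

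Total-count scaling moved the median of all peaks by -0.20 for Epcam+ tumours against normal epithelia and by -0.32 for Lgr5_Epcam+ against HF. For Lgr5_Epcam+ against HF, total-count scaling gave 24418 peaks and 40 members lower, in place of 13130 and 11. DESeq2 gave 7143 and 6, but it tested only 142877 peaks and 270 members, where edgeR tested 177238 and 282. For Lgr5_Epcam+ against K14_Epcam+, where edgeR called 1 peak higher and 14 lower, the counts were 14 and 75 with total-count scaling, 200 and 56 in single-end runs, 6 and 26 in paired-end runs, and 30 and 24 with DESeq2. For Epcam+ tumours against normal epithelia, members higher numbered 3 with total-count scaling, beside 12.4% of all peaks, and 3 in paired-end runs, beside 13.97%. Members lower numbered 54 with total-count scaling, beside 18.5% of all peaks, and 17 in single-end runs, beside 12.7%. Leaving out an Lgr5_Epcam+ replicate gave 16463 to 26690 peaks higher, 11847 to 21566 lower, 3 to 6 members higher and 15 lower in both cases. The lower peak counts were those without replicate 1. The other fits then have no residual degree of freedom and were not run. The cause of these changes was not tested.

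The difference of Lgr5_Epcam+ replicate 1 between inside and flank was 1.58, 1.02, 0.95 and 0.87 in Yap1, Dpy19l1, Smad6 and Vps13c with peaks of the commonest width. It was 1.30 in Yap1 against K14_Epcam+ only, 0.84 in Dpy19l1 and 0.87 in Smad6 against replicate 2 only, 1.01 in Dpy19l1 and 0.72 in Vps13c with flanks of 1.5 Mb, and 0.78 and 0.58 in Vps13c in single-end and paired-end runs. No paired analysis was possible because the labels number only 1 library, and no label ties libraries of different groups to an animal or batch.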
